A study of Danio rerio with 73 samples.

Results

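Ovaries of zebrafish reared at 28 °C were compared between 2 sets of fish whose sample titles begin with 128 or with 204, in order to see where the DNA methylation level and its spread between fish differed. The comparison took every 28 °C ovary of the series, 18 of 73 fish: 9 with prefix 128 and 9 with prefix 204. All 18 were laboratory-reared fish of the AB strain, 90 days old, and 1 fish gave 1 ovary sample. The labels do not define the prefixes, and anything else that went with a prefix cannot be told apart from it. The remaining fish were 12 ovaries from 36 °C, all with prefix 204, and testes from both temperatures: 13 of prefix 128 and 10 of prefix 204 from 28 °C, and 12 of prefix 128 and 8 of prefix 204 from 36 °C. Per the series' design text the assay was aimed at the promoters of 18 genes.

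In vertebrates, methyl groups are placed on cytosines that are followed by guanine (CpG sites), and a dense methyl mark over a promoter usually goes with a silent gene, while promoters rich in CpGs are mostly free of it. Laboratory zebrafish have no single master sex chromosome, and raising larvae in warm water shifts the sex ratio towards males. In fish gonads, promoters of sex-related genes are known to carry different methylation in testis and ovary. Bisulfite turns unmethylated cytosine into uracil and leaves methylated cytosine in place, so the share of reads that still show a cytosine is the methylation level. A whole ovary holds germ cells at several stages and somatic cells, and a different level within a cell type and a different mix of cell types cannot be told apart here.

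For each fish and CpG, methylated calls were divided by all calls to give a level in percent, and a level was kept only from at least 10 calls. Of 25217 CpGs listed in the files, 324 had a level in at least 50% of all 73 fish, and 323 of them fell into 20 regions, each read on 1 strand. Regions are called here by chromosome, with a letter where a chromosome holds several. Total calls ran from 3230134 to 8767356 in the 128 ovaries and from 711295 to 9004777 in the 204 ovaries. The mean log10 of the totals was 0.176 higher with prefix 128 (two-sided exact permutation test, p = 0.175). The number of CpGs listed for a fish ran from 573 to 2743 with prefix 128 and from 373 to 1894 with prefix 204 (two-sided exact permutation test on the log10 scale, p = 0.105). It was split at 1000 into 2 classes after the data were seen, with no fish between 980 and 1626. With prefix 128, fish 3, 7, 8 and 9 had 573 to 980 listed CpGs, and fish 10, 12, 14, 15 and 17 had 1708 to 2743. With prefix 204, fish 4, 6, 10, 16, 19 and 20 had 373 to 831, and fish 11, 12 and 13 had 1626 to 1894. What these classes stand for is not given in the labels, and values within each class are given where they bear on a result.

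The tissue label was checked against the testes reared at the same temperature. At region 18 (chr18:39655137-39655521, GRCz10, as for all positions here), ovaries ran from 18.5% to 52.0% with prefix 128 and from 23.7% to 45.1% with prefix 204. The libraries labelled testis ran from 40.4% to 96.6% with prefix 128 and from 25.1% to 49.1% with prefix 204. At this region the ovaries of both prefixes thus shared a range. The 8 of 10 28 °C libraries labelled testis with prefix 204 that had a level there lay at ovary levels. So did fish 20 and 22 of the testes with prefix 128. No gene names could be given to the regions, since no GRCz10 annotation or promoter sequences were at hand.

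Averaged over a region, a difference between the prefixes seldom passed, although the SE of that difference reached 6.37 points at region 7b. The level of a region differed at 1 of 18 regions tested, which is 5.56% of them (two-sided exact permutation test over fish, Benjamini-Hochberg adjusted p below 0.05; at least 5 fish per prefix). The mean over regions, after each region was centred on its mean over the 18 ovaries, was 0.276 points higher with prefix 128 (SE 0.976; two-sided exact permutation test, p = 0.781). Of the 18 regions, 11 had a higher mean with prefix 128 and 7 a lower mean.

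The 3 regions of high level stood above 80% in every fish. Region 14 (chr14:23501841-23502150) stood at 92.8% ± 2.96 with prefix 128 and 92.1% ± 1.14 with prefix 204 (SD, n = 9 each). Region 8 (chr8:29856084-29856417) stood at 90.7% ± 1.76 with prefix 128 and 90.3% ± 1.15 with prefix 204 (SD, n = 9 each). Region 20 (chr20:1252974-1253280) stood at 84.6% ± 2.11 with prefix 128 and 85.5% ± 1.52 with prefix 204 (SD, n = 9 each). The difference between means was under 1 point in all 3, and the lowest adjusted p of the 3 was 0.700 (exact permutation test).

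The 9 regions of intermediate level held most of the variation between fish. Region 16 (chr16:54645605-54645858) ran from 53.4% to 76.3% in 7 ovaries with prefix 128 and from 56.8% to 77.1% in 8 with prefix 204. Region 19b (chr19:27434975-27435361) ran from 54.5% to 67.9% with prefix 128 and from 59.5% to 67.5% with prefix 204. Region 25 (chr25:22224443-22224607) ran from 30.5% to 49.3% with prefix 128 and from 41.2% to 46.4% with prefix 204. The ranges of the prefixes overlapped in each of these, and the range with prefix 204 lay inside that with prefix 128 in regions 19b and 25. Region 3a (chr3:17897376-17897597) ran from 14.4% to 52.9% with prefix 128 and from 27.3% to 40.7% with prefix 204. Region 7b (chr7:34854540-34854908) ran from 10.6% to 43.6% in 5 ovaries with prefix 128 and from 15.1% to 31.3% in 9 with prefix 204. Region 22 (chr22:20736688-20736788), with a median of 17.5 and 68.5 calls per CpG, ran from 5.35% to 24.7% in 5 ovaries with prefix 128 and from 3.55% to 17.9% in 6 with prefix 204. None of the 7 intermediate regions tested passed; the largest differences were 4.87 points (SE 4.13) at region 22 and -2.38 points (SE 2.12) at region 25, 128 minus 204, each with an adjusted p of 0.700 (exact permutation test).

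Regions 5c (chr5:44344567-44344999) and Un (unplaced scaffold chrUn_KN150211v1:6205-6328) had a level in too few fish for the test. At region 5c, all 9 ovaries with prefix 128 had a level, from 18.3% to 45.9%, and 4 ovaries with prefix 204, from 21.1% to 35.4%. The median depth per CpG there was 23984 calls with prefix 128 and 4 calls with prefix 204. At region Un, 7 ovaries with prefix 128 ran from 23.9% to 72.5% and 4 with prefix 204 from 20% to 60.4%. The number of fish with a level differed between prefixes at 0 of 20 regions, which is 0% (two-sided Fisher's exact test, Benjamini-Hochberg adjusted), and at region 5c alone before adjustment (p = 0.0294).

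**Figure D1:**
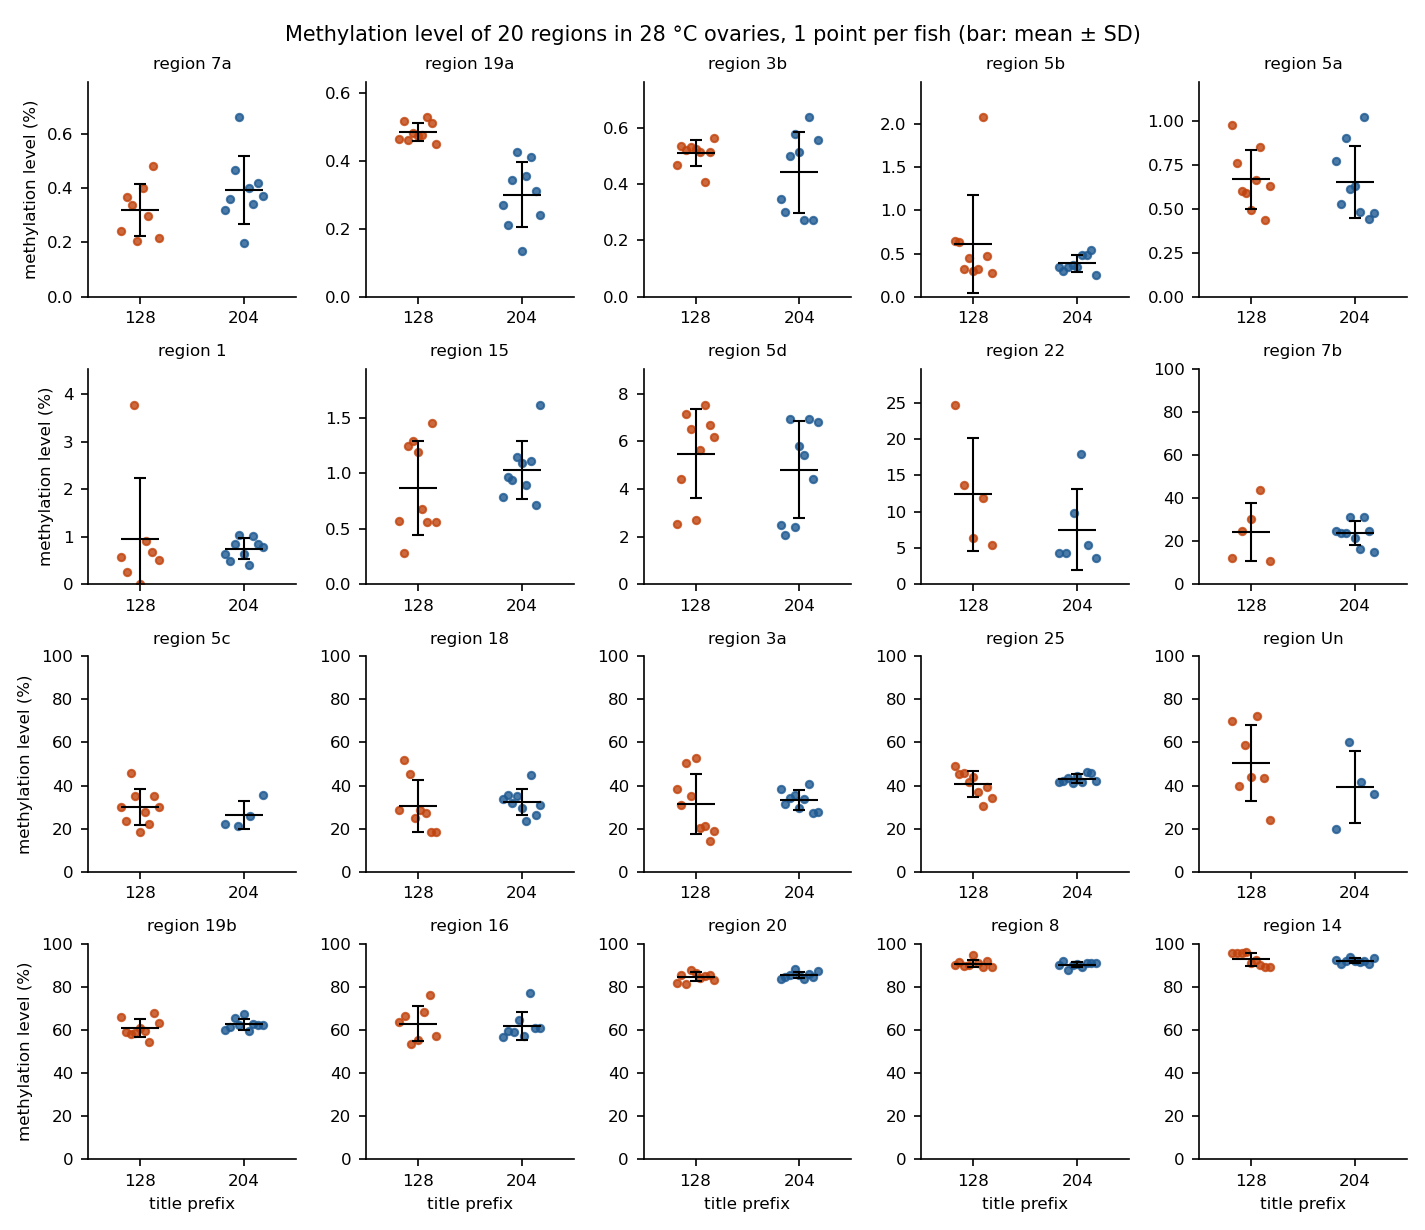
Methylation level (%, vertical axis) of the 20 regions in 28 °C ovaries, ordered from the lowest to the highest mean; each point is a fish, prefix 128 left and prefix 204 right, and the bar is the mean with its SD. Vertical scales start at 0 and differ between regions. Only region 19a separates the prefixes; regions 14, 25 and 3a are wider with prefix 128.

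The 8 regions of low level averaged under 5.5% over the 18 ovaries, and the 1 region that differed was among them. Region 19a (chr19:1356464-1356767, 18 CpGs) had a lowest, median and highest level of 0.451%, 0.476% and 0.528% in the 128 ovaries, against 0.136%, 0.311% and 0.427% in the 204 ovaries. The highest fish with prefix 204 lay below the lowest with prefix 128, so the prefixes did not overlap. The means were 0.485% ± 0.027 with prefix 128 and 0.300% ± 0.095 with prefix 204 (SD, n = 9 each), a difference of 0.185 points (SE 0.033; exact permutation test, adjusted p = 0.00074). It did not pass with limma on the same levels (adjusted p = 0.0531). The difference was 0.184 points among fish below 1000 listed CpGs and 0.182 points among those above. Of its 18 CpGs, 16 had a higher mean with prefix 128. Both sets were almost unmethylated there, and the files list CpGs only, so that the conversion rate of the bisulfite step in each fish was not tested.

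In the other low regions the levels of the prefixes overlapped. Region 3b (chr3:54352466-54352868) stood at 0.509% ± 0.046 with prefix 128 and 0.442% ± 0.143 with prefix 204 (SD, n = 9 each). Region 5b (chr5:34961306-34961660) ran from 0.274% to 2.07% with prefix 128 and from 0.258% to 0.543% with prefix 204. Region 15 (chr15:7060346-7060685) ran from 0.277% to 1.46% with prefix 128 and from 0.711% to 1.62% with prefix 204. Regions 5a (chr5:23697173-23697500) and 7a (chr7:22538693-22539035) stayed at or below 1.02% in every fish. Region 1 (chr1:6886521-6886862) had a median of 0.578% in 7 ovaries with prefix 128 and 0.774% in 9 with prefix 204.

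Region 5d (chr5:44400346-44400733) looked split within both prefixes, and its last CpG moved with the split. That CpG, chr5:44400733, had 0 to 60 calls per fish and a level in 6 fish of each prefix, from 47.1% to 100%. The region level was 4.40% to 7.53% in those 12 fish and 2.07% to 4.41% in the other 6. Without this CpG the 12 fish stood at 1.34% to 3.38%, so the split lay in whether this CpG had a level. With this CpG left out, the region stood at 2.71% ± 0.81 with prefix 128 and 2.29% ± 0.44 with prefix 204 (SD, n = 9 each; exact permutation test for this value alone, p = 0.196).

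A few single CpGs differed far more than the region means. Of 294 CpGs tested, 11 passed, which is 3.74% (exact permutation test, Benjamini-Hochberg adjusted p below 0.05), 8 higher and 3 lower with prefix 128. At an unadjusted p below 0.05 there were 38, which is 12.9%, and 6 CpGs (2.04%) had no overlap between the prefixes. The 11 lay in 4 regions: 2 in region 3a, 2 in region 25, 3 in region 19a and 4 in region 3b. In regions 3a and 25 the differences were 17.7 points and more, and in regions 19a and 3b they were 0.494 points and less.

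In region 3a, a pair of CpGs went in opposite directions. At chr3:17897380 (context CGC in the files, minus strand), the lowest, median and highest levels were 18.8%, 42.3% and 62.9% in the 128 ovaries, against 7.57%, 8.62% and 10.7% in the 204 ovaries. All 9 fish with prefix 128 lay above all 9 with prefix 204. The means were 40.3% ± 16.5 with prefix 128 and 8.74% ± 0.85 with prefix 204 (SD, n = 9 each), a difference of 31.6 points (SE 5.5; exact permutation test, adjusted p = 0.00202). At chr3:17897597 (context CGA), the lowest, median and highest levels were 0%, 0.237% and 0.720% in the 128 ovaries, against 32.9%, 37.8% and 45.0% in the 204 ovaries. Here the order was turned round, with next to no methylation in any fish with prefix 128. The difference was -38.7 points, 128 minus 204 (SE 1.24; exact permutation test, adjusted p = 0.00202). Depth at this pair ran from 221 to 1093 calls with prefix 128 and from 224 to 3564 with prefix 204.

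The other 4 CpGs of region 3a did not show either pattern. Their means ran from 34.4% to 38.7% with prefix 128 and from 35.3% to 39.6% with prefix 204, and the differences from -1.17 to -0.65 points, all with an adjusted p of at least 0.975 (exact permutation test). The CpG chr3:17897376 lies 4 bp from chr3:17897380 and stood at 14.2% to 60.3% with prefix 128 and 25.7% to 48.7% with prefix 204. In the 204 ovaries, then, a CpG at a level near 8.7% sat between neighbours at 25.7% to 51.3%, whereas in the 128 ovaries it ran over much the same range as its neighbours. The region means stayed close all the same, at 31.4% with prefix 128 and 33.2% with prefix 204.

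In region 25, both CpGs that differed had next to no methylated calls with prefix 128, and 1 of them had few calls at all. At chr25:22224492 (context CGC, plus strand), the level was 0% in each of the 8 ovaries with prefix 128 that had a level, against a lowest, median and highest of 25.6%, 29.4% and 35.9% in the 204 ovaries. With prefix 128, 0 of 486 calls over the 8 fish were methylated, which allows a level of up to 0.617% over the group by counting error alone. The difference was -29.7 points, 128 minus 204 (SE 1.09; exact permutation test, adjusted p = 0.00202). Calls at this CpG ran from 8 to 232 per fish with prefix 128 and from 13 to 1892 with prefix 204. Relative to the best-covered CpG of the region, where that had at least 100 calls, they were 3.72% to 8% with prefix 128. With prefix 204 they were 21.9% to 35.0%. Whether the missing calls bear on the level of 0% was not tested. At chr25:22224443 (context CGT), the lowest, median and highest levels were 0%, 0.169% and 1.02% in the 128 ovaries, against 12.6%, 17.6% and 24.4% in the 204 ovaries. The difference was -17.7 points (SE 1.14; exact permutation test, adjusted p = 0.00202). Neither CpG had overlapping prefixes.

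The other 6 CpGs of region 25 had means of 27.1% to 76.4% with prefix 128 and 20.8% to 75.4% with prefix 204, and their lowest adjusted p was 0.330 (exact permutation test). Of these 6, 5 were higher with prefix 128. The CpGs on either side of chr25:22224492, each 4 bp away, stood at 22.8% to 55.9% and 16.0% to 42.2% with prefix 128, although the CpG between them read 0%. Each of these 4 CpGs of regions 3a and 25 passed without any single fish, and each lay in the same direction within both classes of listed CpGs.

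**Figure D2:**
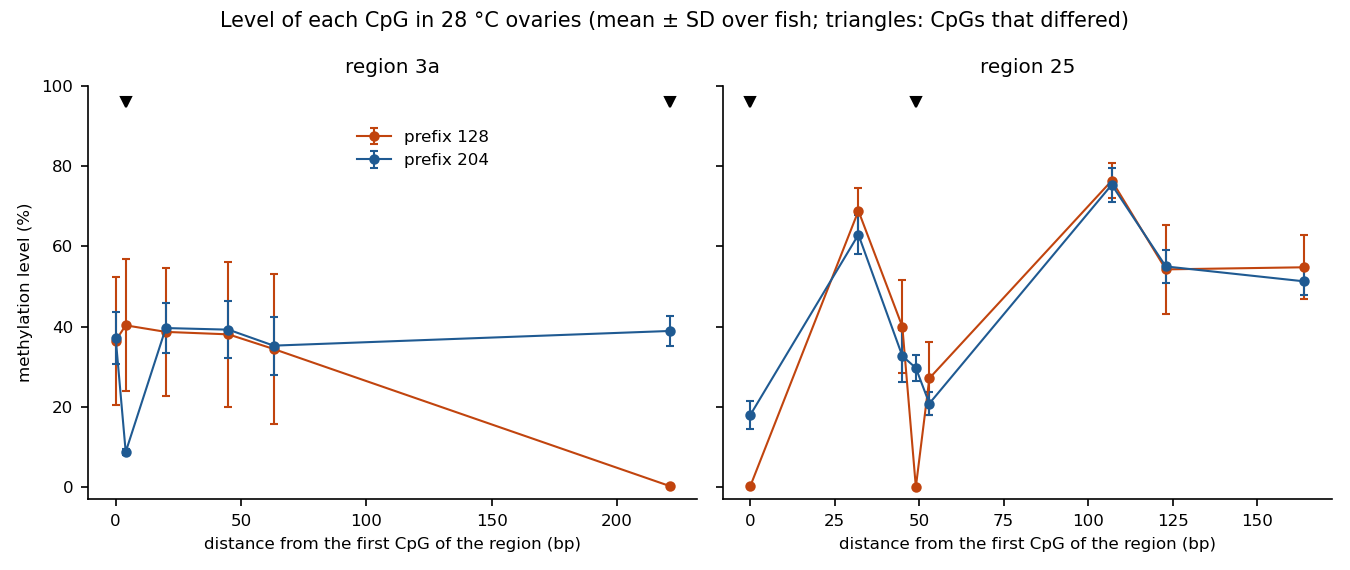
Methylation level (%, vertical axis) of each CpG of regions 3a and 25 against its distance from the first CpG of the region (bp), as mean and SD over 28 °C ovaries of prefix 128 and prefix 204. Triangles mark the 4 CpGs that differed; at 221 bp in region 3a the means are 0.261% with prefix 128 and 38.9% with prefix 204, while the unmarked CpGs of the same region differ by at most 1.17 points between prefixes.

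The 7 smaller differences were all higher with prefix 128 and all in regions near 0%. In region 19a, chr19:1356594 (context CGA) had a lowest, median and highest level of 0.328%, 0.614% and 1.28% in the 128 ovaries, against 0.051%, 0.248% and 0.316% in the 204 ovaries, with no overlap (difference 0.475 points, SE 0.103; exact permutation test, adjusted p = 0.00202). The CpGs chr19:1356520 and chr19:1356602 were higher by 0.380 and 0.420 points (adjusted p = 0.0215 and 0.0121, exact permutation test). In region 3b, chr3:54352624 (context CGG) ran from 0.190% to 2.92% with prefix 128 and from 0% to 0.126% with prefix 204, with no overlap (adjusted p = 0.00202, exact permutation test). Fish 9 of the 128 ovaries gave its highest value, and without that fish the difference was 0.198 points in place of 0.494. The CpGs chr3:54352617, chr3:54352644 and chr3:54352688 were higher by 0.198, 0.212 and 0.230 points (adjusted p from 0.0215 to 0.0363, exact permutation test). The call at chr3:54352688 was lost without any of 10 single fish (fish 3, 12 and 14 with prefix 128 and fish 10, 11, 12, 13, 16, 19 and 20 with prefix 204), with adjusted p up to 0.0924. With limma, none of these 4 CpGs of region 3b passed, whereas the other 7 CpGs did. In region 3b as a whole, 17 of 26 CpGs had a higher mean with prefix 128, and the region mean differed by 0.067 points (SE 0.050; exact permutation test, adjusted p = 0.700).

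The same contrast of prefixes was then read in testes, which are other fish than those in which these CpGs were found; 20 tests over 11 CpGs and 2 temperatures were adjusted together. At chr3:17897380, testes at 28 °C averaged 88.4% ± 19.2 with prefix 128 (SD, n = 13) and 13.5% ± 11.5 with prefix 204 (SD, n = 10; two-sided exact permutation test, adjusted p = 1.75e-05). At chr3:17897597 they averaged 0.287% ± 0.126 with prefix 128 (SD, n = 13) and 39.7% ± 14.2 with prefix 204 (SD, n = 10; adjusted p = 1.75e-05). The highest testis with prefix 204 reached 41.1% at chr3:17897380, where the lowest with prefix 128 stood at 40.9%, so the ranges met there. Both CpGs differed in the direction seen in ovaries, and they did so at 36 °C too, by 66.0 and -56.9 points (n = 12 with prefix 128 and 8 with prefix 204; exact permutation test, adjusted p = 7.94e-05 for each). A single 36 °C testis with prefix 128 stood at 48.7% at chr3:17897597, where the mean of its group was 4.26%. In 28 °C testes, region 3a as a whole averaged 72.8% with prefix 128 and 39.5% with prefix 204, 33.3 points apart. In 28 °C ovaries that difference was -1.78 points. At region 18 the 28 °C libraries labelled testis with prefix 204 lay at ovary levels, as given above. At region 3a they ran from 25.7% to 59.5%, where the highest ovary stood at 52.9%. How much of the testis difference at chr3:17897380 went with the whole region was not tested. At chr3:17897597 the difference ran against that of the region.

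At chr25:22224443, 28 °C testes averaged 0.416% ± 0.652 with prefix 128 (SD, n = 7) and 16.9% ± 4.60 with prefix 204 (SD, n = 8; exact permutation test, adjusted p = 0.000622). At chr25:22224492, the 4 testes with prefix 128 that had a level read 0%, and 8 with prefix 204 averaged 27.1% ± 6.52 (SD; exact permutation test, adjusted p = 0.00577). No 36 °C testis with prefix 128 had a level at this pair. Without fish 20 and 22 of the testes with prefix 128, all 4 differences at 28 °C still passed, with adjusted p of at most 0.0152 (exact permutation test). Both fish were picked for their ovary levels at region 18, and no testis with prefix 204 was left out.

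The small differences were found again in testes at few CpGs. Of the 7 CpGs, chr19:1356602 passed in 28 °C testes, 0.449 points higher with prefix 128 (adjusted p = 0.0252, exact permutation test), and 0.452 points lower with prefix 128 in 36 °C testes (adjusted p = 0.0132). With the same 2 fish left out at 28 °C, chr19:1356520 passed as well, 0.228 points higher with prefix 128 (adjusted p = 0.0302, exact permutation test), and chr19:1356602 still passed (adjusted p = 0.0229). Of the 4 CpGs of region 3b, 0 passed at 28 °C (smallest unadjusted p = 0.360), and chr3:54352624 and chr3:54352688 were lower with prefix 128 at 36 °C, by 0.609 and 0.635 points (adjusted p = 0.0252 and 0.00413, exact permutation test). Ovaries reared at 36 °C, all with prefix 204, stood near the 28 °C ovaries of that prefix at the 4 CpGs of large difference: 10.4% ± 5.73 at chr3:17897380, 34.9% ± 7.55 at chr3:17897597, 18.4% ± 4.06 at chr25:22224443 and 33.4% ± 5.03 at chr25:22224492 (SD, n = 11 each).

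**Figure D3:**
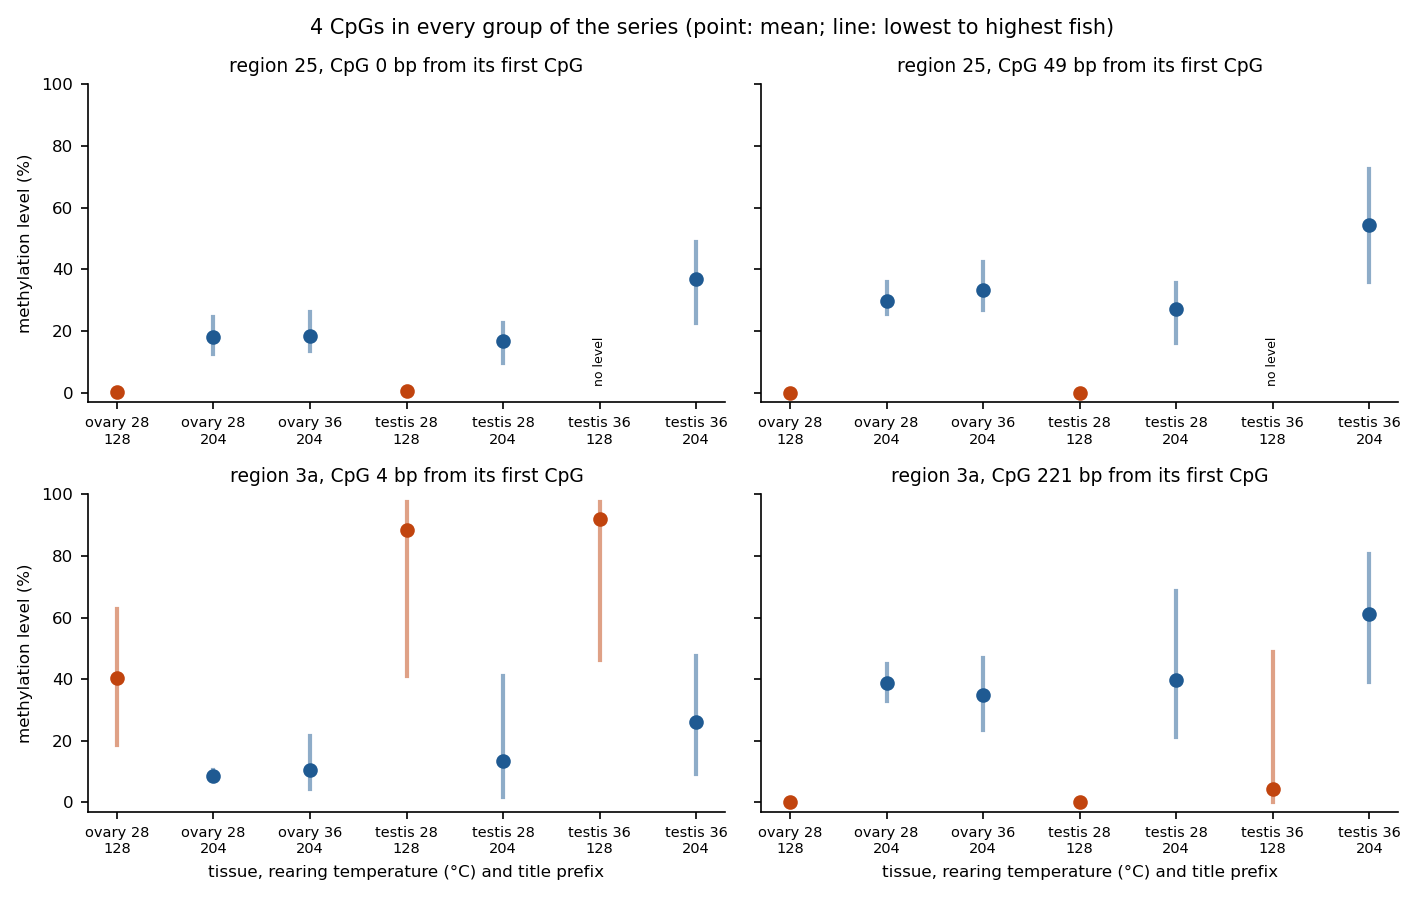
Methylation level (%, vertical axis) of the 4 CpGs of large difference in the 7 groups of tissue, rearing temperature (°C) and title prefix; points are group means and lines run from the lowest to the highest fish. The prefixes do not overlap in ovaries at any of the 4; in testes the ranges overlap at chr3:17897380 at both temperatures and at chr3:17897597 at 36 °C, and at chr25:22224443 and chr25:22224492 (top row) 36 °C testes with prefix 128 had no level.

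The number of calls at a CpG relative to its neighbours also differed between prefixes at some sites. Calls were expressed as a percent of the best-covered CpG of the same region in the same fish, where that CpG had at least 100 calls. Of 288 CpGs tested, 21 passed, which is 7.29% (exact permutation test, Benjamini-Hochberg adjusted), and 17 of them differed by less than 0.5 points, 15 of these in region 5b. The other 4 were larger. At chr25:22224492 the relative depth was 3.72% to 8% with prefix 128 and 21.9% to 35.0% with prefix 204, with no overlap (exact permutation test, adjusted p = 0.00148). At chr14:23501850 it was 49.5% to 99.4% with prefix 128 and 99.9% to 100% with prefix 204 (adjusted p = 0.00148, exact permutation test), and the 128 ovaries stood at 49.5% to 54.3% in 3 fish, 66.7% to 68.0% in 3 and 96.1% to 99.4% in 3. At chr25:22224443 the means were 65.1% with prefix 128 and 60.5% with prefix 204 (adjusted p = 0.0372, exact permutation test), and at chr5:44400502 they were 80.1% with prefix 128 and 77.6% with prefix 204 (adjusted p = 0.00148). The pair of CpGs in region 3a had 99.0% to 100% in every ovary, so their calls were as many as at the other CpGs of the region. The files hold no genotypes, and whether the DNA sequence at these CpGs differs between the prefixes was not tested.

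The share of a fish's calls taken by each region moved with the prefix as well. It differed at 8 of 20 regions, which is 40% (exact permutation test on the log10 share, Benjamini-Hochberg adjusted). Region 5b took a median of 40.5% of all calls with prefix 128 and 15.4% with prefix 204, without overlap. Region 20 took a median of 1.18% with prefix 128 and 5.93% with prefix 204, and region 7b 0.049% with prefix 128 and 1.28% with prefix 204, both without overlap. Region 3b also had a larger share with prefix 128, and regions 1, 3a, 5d and 18 a smaller share. The shares of a fish add up to a fixed total, so a larger share of region 5b leaves less for the other regions. The 8 calls cannot be read as separate differences in depth. Regions 3a and 3b, which hold 6 of the 11 CpGs that differed, are among these 8, and regions 19a and 25 are not; the part of depth in the level differences was not tested beyond the coverage minimums given at the end.

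The spread between fish differed in more regions than the level did, but only just past the threshold. It was measured as the mean absolute deviation of a fish from the median of its prefix. Of 18 regions, 5 passed, which is 27.8% (two-sided exact permutation test of these deviations, Benjamini-Hochberg adjusted p from 0.0465 to 0.0475). The deviations depend on a median taken from the same fish, so p-values for spread are approximate, although every split was used. The fish with prefix 128 were more spread at regions 3a, 14 and 25 and less spread at regions 3b and 19a. Region 3a deviated by 11.4 points with prefix 128 and 3.72 points with prefix 204. Region 25 deviated by 4.81 points with prefix 128 and 1.52 points with prefix 204, and region 14 by 2.58 points with prefix 128 and 0.840 points with prefix 204. The narrow regions were narrow on the scale of their low levels: region 3b deviated by 0.028 points with prefix 128 and 0.121 points with prefix 204, and region 19a by 0.021 points with prefix 128 and 0.075 points with prefix 204.

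In direction, all 10 tested regions of intermediate or high level were more spread with prefix 128, against 3 of 8 regions of low level. The bound of 5.5% counted region 5d, at a mean of 5.14%, as low. That region was less spread with prefix 128 (1.40 points, against 1.67 with prefix 204). All regions were read in the same fish, so their directions are not independent. The spread of the mean over regions did not pass a test: it deviated by 2.02 points with prefix 128 and 1.07 points with prefix 204 (two-sided exact permutation test, p = 0.135). The widest of those that did not pass was region 7b, which deviated by 10.2 points with prefix 128 and 3.91 points with prefix 204 (adjusted p = 0.163, exact permutation test). Of 294 single CpGs, 0 passed for spread, which is 0%; 26 (8.84%) had an unadjusted p below 0.05 (exact permutation test). The 5 of smallest p, which did not pass, were chr3:17897380, where the deviation was 13.9 points with prefix 128 and 0.535 points with prefix 204, chr3:17897597 and chr25:22224492, where the 128 fish sat at or near 0%, chr5:34961384 and chr14:23501896.

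Each call of spread was lost without some single fish: 8 of 18 fish for region 14, 12 for regions 3a and 19a, 11 for region 3b and 14 for region 25, with adjusted p up to 0.0894. All 5 were lost without fish 8 with prefix 128, and likewise without fish 4, 6 or 13 with prefix 204. None of the 5 passed when deviations were taken from the median of the same prefix and class of listed CpGs.

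The classes of listed CpGs split the 128 ovaries at region 14. Fish 3, 7, 8 and 9, below 1000 listed CpGs, stood at 95.5% to 96%, and fish 10, 12, 14, 15 and 17, above 1000, at 89.2% to 92.2%. The 204 ovaries stood at 90.5% to 93.4% below and 91.5% to 94.0% above. Below 1000, prefix 128 was 3.91 points higher than prefix 204 (4 and 6 fish; two-sided exact permutation test, p = 0.00476), and above 1000 it was 1.98 points lower (5 and 3 fish; exact permutation test, p = 0.107), so the small pooled difference of 0.758 points joined opposite ones. The fish below 1000 listed CpGs were also deeper there, with 30281 to 111355 calls at chr14:23502150, against 3976 to 7373 in the others with prefix 128. A pair of CpGs carried the split: chr14:23502150 stood at 84.4% to 90.2% in the 4 fish and 57.2% to 70.2% in the 5, and chr14:23502026 at 89.5% to 97.3% and 67.9% to 85.6%, while the 204 ovaries ran from 73.7% to 87.9% and from 70.0% to 82.4% at the same CpGs.

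With prefix 128, regions 3a, 18, 25, 5c and Un leaned the same way, and regions 7b, 8, 16, 19b and 20 leaned the other way. Those leaning the other way averaged, in that order, 22.5%, 90.2%, 61.2%, 60.4% and 84.2% below 1000 listed CpGs. Above 1000 they averaged 27.1%, 91.2%, 64.2%, 61.3% and 84.9%. Region 18 averaged 42.1% in 3 fish below 1000 listed CpGs and 23.6% in 5 above, and region 25 averaged 45.5% in 4 and 37.1% in 5. Region 3a averaged 38.7% below and 25.5% above, but fish 10, above, was the highest of all at 52.9%. With prefix 204, region 18 averaged 33.9% below and 29.4% above, region 25 43.7% and 42.4%, and region 3a 33.2% and 33.0%. The classes were seen in these data and what they stand for is not given, so the p-values within classes at region 14 are unadjusted and describe classes chosen after the data were seen.

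**Figure D4:**
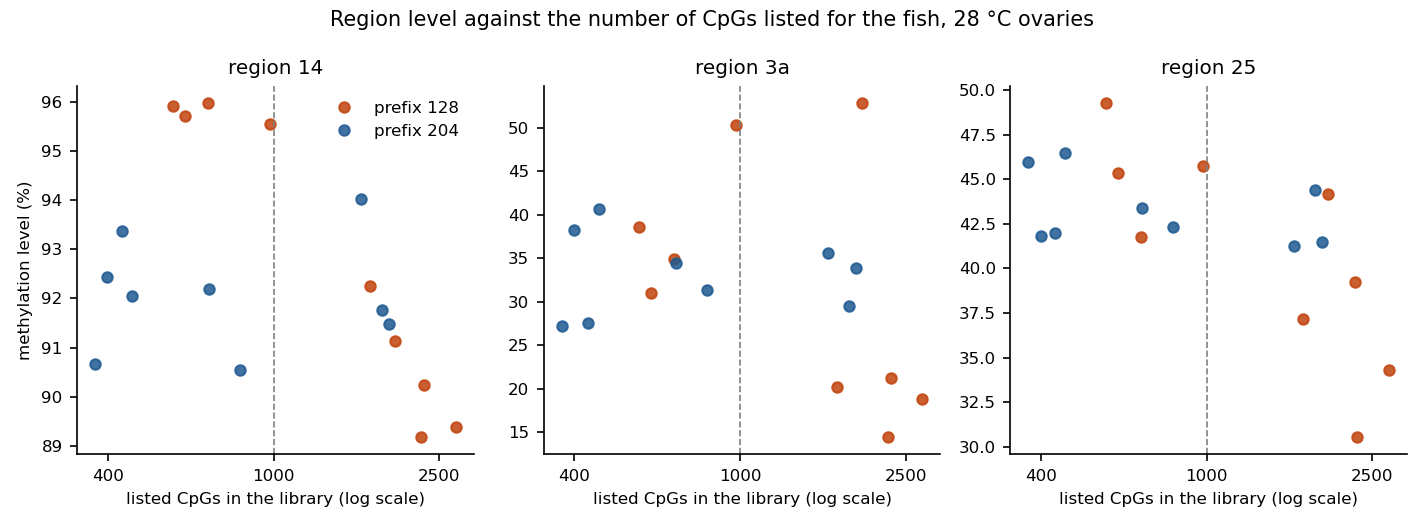
Methylation level (%, vertical axis) of regions 14, 3a and 25 against the number of CpGs listed for the fish (log scale), 1 point per 28 °C ovary, prefix 128 and prefix 204; the dashed line is at 1000 listed CpGs. At region 14 the 4 fish of prefix 128 left of the line lie at 95.5% to 96% and the 5 right of it at 89.2% to 92.2%. Vertical axes do not start at 0.

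Some CpGs varied widely between fish within a prefix. At chr19:27435059 the lowest, median and highest levels were 0.280%, 26.0% and 64.8% in the 128 ovaries, against 21.9%, 27.6% and 37.4% in the 204 ovaries. Fish 9 and 12 with prefix 128 were near 0% there on 17474 and 18394 calls, and fish 3 and 17 were at 64.8% and 58.1%. The CpG 3 bp upstream, chr19:27435056, reached 72.1% and 73.2% in fish 12 and 10 of the 204 ovaries and stayed at 34.1% to 45.7% in the other 7. At chr16:54645721, 3 ovaries with prefix 128 stood at 0.120% to 0.293% and the highest at 45.1%, and the 204 ovaries ran from 0.163% to 86.7%. At chr1:6886521, 7 ovaries with prefix 128 and 9 with prefix 204 had a level. Fish 9 with prefix 128 stood at 71.4% there, and no other of these ovaries passed 4.18%.

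Whether fish with a high level in one region also had a high level in another was read from correlations over 11 to 18 fish. Over 15 pairs of 6 intermediate regions, the largest Pearson correlation was that of regions 25 and 3a (Pearson's r = 0.64, permutation p = 0.00424, adjusted p = 0.0636; Spearman's rho = 0.57, permutation p = 0.0143, adjusted p = 0.107; n = 18). It was r = 0.71 with prefix 128 and r = -0.01 with prefix 204 (n = 9 each), and r = 0.55 without the 2 fish farthest from the median. Spearman's rho was larger for regions 18 and 3a (rho = 0.62, permutation p = 0.00981, adjusted p = 0.107; Pearson's r = 0.60, permutation p = 0.0101, adjusted p = 0.0759; n = 17), where r was 0.60 with prefix 128 and 0.65 with prefix 204, and 0.48 without the 2 fish farthest from the median. No pair passed after adjustment, which with so few fish does not show that the levels were unrelated.

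Whether the prefixes differed more in one tissue than in the other was tested directly at 28 °C, as the difference of prefixes in ovary minus that in testis. It differed at 11 of 20 regions, which is 55% (100000 permutations of residuals of the additive model, Benjamini-Hochberg adjusted), and at 13 regions, 65%, before adjustment. In 10 of the 11 the excess of prefix 128 over prefix 204 was larger in testis than in ovary. At region 7b the prefixes differed by 0.720 points in ovary and 64.4 points in testis (interaction -63.7 points, SE 8.51, adjusted p = 0.000133). At region 18 they differed by -1.88 points in ovary and 48.4 points in testis (interaction -50.3 points, SE 7.90, adjusted p = 0.00016), and at region 3a by -1.78 and 33.3 points (interaction -35.1 points, SE 7.66, adjusted p = 0.000543). Region 5c went the other way, by 3.74 points in ovary and -15.1 points in testis (interaction 18.8 points, SE 5.66, adjusted p = 0.00875), with 4 ovaries with prefix 204. Without fish 20 and 22 of the testes with prefix 128, 13 of 20 regions passed. Both fish were picked for their ovary levels at region 18, and no testis with prefix 204 was left out. The difference in testis thereby rose from 48.4 to 56.8 points at region 18 and from 33.3 to 40.1 points at region 3a. The 13 regions are thus no separate support for the 11. These interactions rest on the 28 °C libraries labelled testis with prefix 204. Those with a level at region 18 lay at ovary levels there. At regions 3a, 5c, 8, 14, 19b and 20, some of these libraries lay outside the range of the 28 °C ovaries. The highest stood at 71.1% at region 19b, against 67.9% in ovaries, and at 89.4% at region 20, against 88.1%. The lowest stood at 85.2% at region 8, against 88.0% in ovaries. At regions 7b and 16 the lowest lay just below the ovaries, and at regions 25 and Un all with a level lay within their range.

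**Figure D5:**
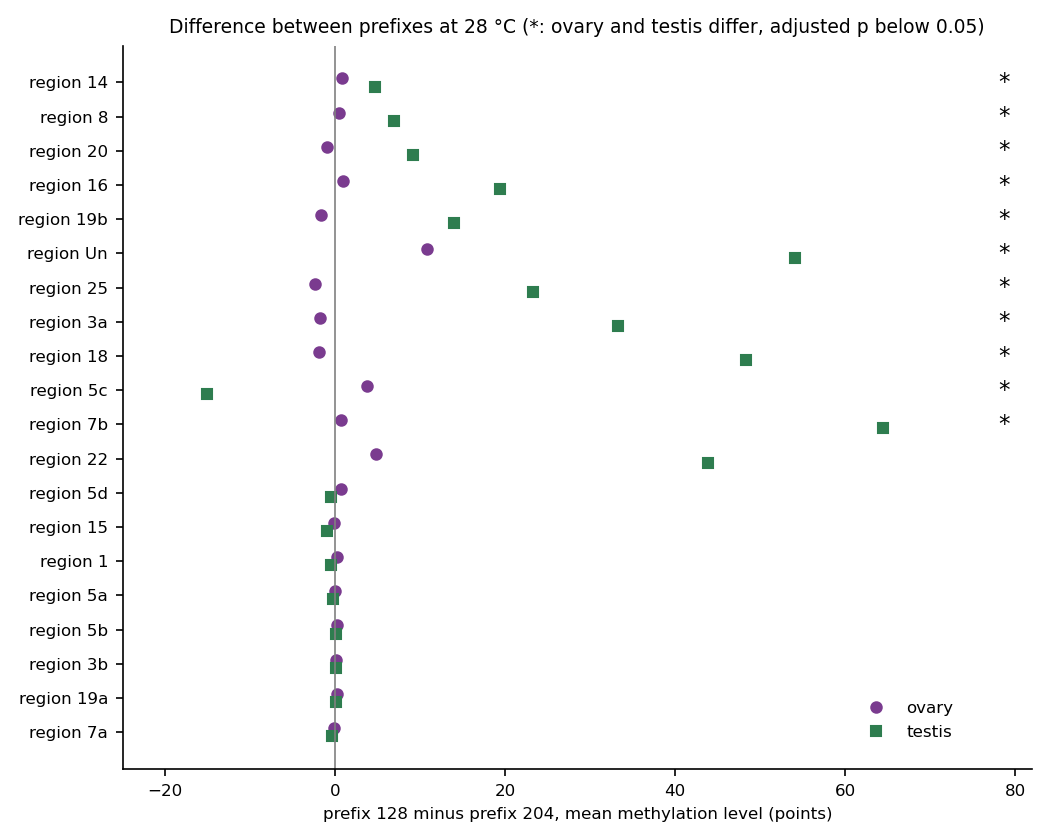
Difference of mean methylation level between prefixes at 28 °C (128 minus 204, points, horizontal axis) for 20 regions (vertical axis). Ovary is drawn as circles and testis as squares. Asterisks mark the 11 regions where the prefix difference in ovary differed from that in testis (permutation of residuals, adjusted p below 0.05). Circles stay between -2.38 and 10.8 points, while squares reach 64.4 points at region 7b.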

How the data were processed

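Gonads were assayed by targeted bisulfite sequencing, and the files hold, for each fish and CpG, the counts of methylated and of unmethylated calls as deposited by the authors, with no normalization. Per the submitters' processing notes, Trim Galore 0.4.5, FastQC 0.11.6, Bowtie2, Bismark 16.0 and GRCz10 were used. No molecular identifiers are mentioned, so limits from counts cover counting error only.

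Levels were kept from at least 10 calls, CpGs from at least 50% of the 73 fish, and neighbours no more than 200 bp from each other formed a region. A region level is the mean of its CpG levels in a fish with at least 50% of them. Regions below 5.5% on average are called low and those above 80% high. The fish was the replicate. Tests were two-sided exact permutation tests over fish (48620 splits for 9 against 9), with at least 5 fish per prefix and Benjamini-Hochberg adjustment over all features. For spread, deviations from the prefix median were permuted, and those p-values are approximate. Interactions and correlations used 100000 resamples, whose smallest p is 1e-05. Python 3.11.15, numpy 2.4.6, scipy 1.17.1, pandas 2.3.3, matplotlib 3.10.9, R 4.3.3 and limma 3.58.1 were used, and the tests were tested on simulated data.

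The named CpGs of each test are the 5 with the largest difference past the threshold, or, where fewer passed, the 5 of smallest p. The other 6 CpGs that passed, their neighbours, and the CpGs that varied between fish were added after their values were seen. The comparison and its lists were chosen with earlier results of these data known. Alternatives were other coverage minimums, CpG and fish filters, region joining, pooled calls, limma, a quasi-binomial logistic model, a replicate block, other measures of deviation, and single fish left out. Chosen after seeing the data were the classes of listed CpGs, the removal of CpGs that differed by over 10 points, and the removal of testis fish 20 and 22. No region was given a gene name. No pair of files held identical values. The labels do not say that equal fish numbers pair fish.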

Additional observations from a re-analysis of the deposited data

Results flagged for a closer look

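In 9 of 66 groups of fish, 1 fish stood apart from the others by Dixon's criterion. About 3.3 would do so if the groups were normal and independent. Regions and single CpGs inside them were both among the 66, and many levels lay near 0%, so that number is a rough guide only. With prefix 128, fish 9 stood at 3.77% at region 1, where the other fish were at most at 0.899%, and its CpG chr1:6886521 was the one at 71.4%. Fish 9 also stood at 2.92% at chr3:54352624, against at most 0.357% in the others. Fish 14 stood at 2.07% at region 5b, where the others ran from 0.274% to 0.650%. Fish 10 stood at 1.02% at chr25:22224443 and fish 3 at 1.11% at chr3:54352688. With prefix 204, fish 20 stood at 1.62% at region 15, fish 13 at 77.1% at region 16, fish 10 at 0.675% at chr19:1356520 and fish 16 at 10.7% at chr3:17897380. Among these 9, region 16 alone had a gap of over 10 points to the nearest fish.

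The difference between prefixes was unlike in ovary and testis at 11 regions, given here as the ovary difference minus the testis difference in points. It was -63.7 at region 7b, -50.3 at region 18, -43.3 at region Un, -35.1 at region 3a, -25.7 at region 25, -18.5 at region 16, -15.7 at region 19b, -10.1 at region 20, -6.50 at region 8, -3.93 at region 14 and 18.8 at region 5c (permutation of residuals, adjusted p below 0.05 in each). Region Un and region 5c had 4 ovaries with prefix 204.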

How the results depend on the processing

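The region call at 19a and the CpG calls changed little with coverage, filters, region joining or single fish: 1 region passed without any single fish, and 10 to 13 CpGs. Other models changed them. With limma, 0 regions and 7 CpGs differed in level, and with a quasi-binomial model 3 regions and 23 CpGs, 8 of them among the 11. That model put region 15 at a log odds of 0.285, the reverse of its direction. With the fish number as a replicate block in limma, 0 regions and 1 CpG differed. Only numbers 10 and 12 are shared, so that fit drew the prefix difference from the fish with these numbers alone. The loss of calls in it therefore says little about the other fish. Fish of a shared number correlated at r = 0.47 and 0.16 across CpGs, and the numbers were not taken to pair fish.

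The calls of spread were the least stable. Of regions, 0 passed at a minimum of 5 calls, with at least 3 fish per prefix, without the fish below 1000000 calls (fish 4 with prefix 204), without the CpGs over 10 points, and within classes of listed CpGs, where the difference in spread chr14:23501841 (region 14) turned round to -0.305 points; 8 passed with deviations from the mean, and 0 to 5 without single fish. The CpGs over 10 points lay in regions 3a and 25 alone. Without them, regions 3b, 14 and 19a kept their levels and lost the call only through the joint adjustment. The minimum of 3 fish changed no level in the 5 regions, and only added regions to the adjustment. Of CpGs, 65 passed with deviations from the mean, 2 without the fish below 1000000 calls, and 1 to 7 without single fish.

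The panel level difference (the mean over regions) changed sign, to -0.0731 points at 30 calls, -0.00994 at 100 calls, -0.104 with CpGs in 80% of fish and -0.0106 with CpGs in 50% of the 18 ovaries. It ran from -0.131 to 0.830 without single fish, negative without fish 8 with prefix 128 (-0.131) and without fish 6 with prefix 204 (-0.0664). The cause of these changes was not tested. Depth limits regions 22, 5c and Un most.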
